A study of Mus musculus with 6 samples.

Results

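Cells use a small set of receptors and soluble bridging molecules to recognise and swallow dying neighbours, a process called efferocytosis. 10 such genes of the mouse were read here across 6 RNA-seq libraries of myeloid-enriched heart cells: the TAM receptor tyrosine kinases Mertk, Axl and Tyro3, their ligands Gas6 and Pros1, the bridging protein Mfge8, the receptors Stab1 and Lrp1, and the integrin chains Itgav and Itgb5. They were chosen by name, for their known role, with earlier results of these data known. All 10 of the 10 listed symbols matched 1 Ensembl identifier each among the 55487 in the count tables, and all 10 were among the 15707 genes with enough counts to be tested.

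The series compared hearts of C57BL/6 mice whose myeloid cells lack the epidermal growth factor receptor (labelled Egfr mKO, EGFR -/- myeloid-specific, here KO) with hearts of Egfr f/f mice labelled WT, in which Egfr is floxed but not deleted. There were 3 KO and 3 WT libraries, each from a pool of 5 or 6 hearts, so the pool is the replicate. Non-myocyte cells were released with collagenase and hyaluronidase and enriched with beads against Cd11b, a myeloid surface integrin. The labels name neither the driver that deletes Egfr nor the age or sex of the mice, and give no purity after the beads. Separate pools are the only replication, so p-values measure the spread between these pools.

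A dying cell exposes phosphatidylserine on its outer membrane. Gas6 and protein S, the product of Pros1, bind that lipid with a vitamin K-dependent domain and bind a TAM receptor with their other end; Mfge8 does the same between the lipid and integrins that contain the alpha v chain. In healthy tissue Mertk is a standard marker of resident macrophages, the heart's included, whereas Gas6, Mfge8, Axl and Lrp1 are also made by fibroblasts, endothelial cells or smooth muscle cells.

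The 3 TAM receptors are related in sequence, so a stretch of their coding sequences is shown around the kinase signature that defines the family (codons in capitals), and beside it the stretch of Mfge8 that codes for its arginine-glycine-aspartate motif, the part that integrins grip (codons in capitals). The coding sequences, 5′ to 3′ on the coding strand, were taken from GENCODE M21 transcripts on GRCm38.
Mertk: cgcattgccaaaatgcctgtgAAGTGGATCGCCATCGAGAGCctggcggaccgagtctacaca
Axl: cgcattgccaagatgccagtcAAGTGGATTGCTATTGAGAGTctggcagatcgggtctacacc
Tyro3: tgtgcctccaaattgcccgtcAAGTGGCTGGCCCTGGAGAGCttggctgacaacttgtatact
Mfge8: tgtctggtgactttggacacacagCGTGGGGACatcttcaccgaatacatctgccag
The Mertk stretch lies in exon 17 of 19 at chr2:128793028-128793090 (plus strand), that of Axl in exon 18 of 20 at chr7:25761420-25761482 (minus strand), that of Tyro3 in exon 17 of 19 at chr2:119812885-119812947 (plus strand), and that of Mfge8 in exon 3 of 10 at chr7:79145284-79145340 (minus strand). Within the 21 bases of the signature, Mertk shared 17 with Axl and 17 with Tyro3, and Axl shared 15 with Tyro3. Over the whole coding sequence, 66.3% of aligned bases were identical between Mertk and Axl, 66.7% between Mertk and Tyro3 and 65.8% between Axl and Tyro3. The longest run of identical bases in their transcripts was 14 bases for each of these pairs, and 12 bases for Gas6 and Pros1, whose coding sequences were 64.8% identical.

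None of the 10 genes differed between KO and WT past the threshold. In edgeR's quasi-likelihood test over all genes with Benjamini-Hochberg adjustment, 0 of the 10 were called higher and 0 lower at an adjusted p under 0.05, where 0.0127% of all genes tested were called, namely Egfr and Lyz2. Adjusted p-values of the 10 ran from 0.244 for Mfge8 to 0.985 for Itgb5. At an unadjusted p under 0.05, edgeR placed 1 of the 10 lower, Mfge8, and 0 higher, beside 10.6% of all genes lower and 4.77% higher. DESeq2 called 0 of the 10, beside 5.22% of all genes (1.08% higher, 4.14% lower), edgeR without a filter on low counts 0, beside 2.7% (0.479% higher, 2.22% lower), and limma-voom 0. The median log2 fold change of the 10 was -0.04, with 4 positive and 6 negative, and that of all genes tested was 0.0072.

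**Figure D1:**
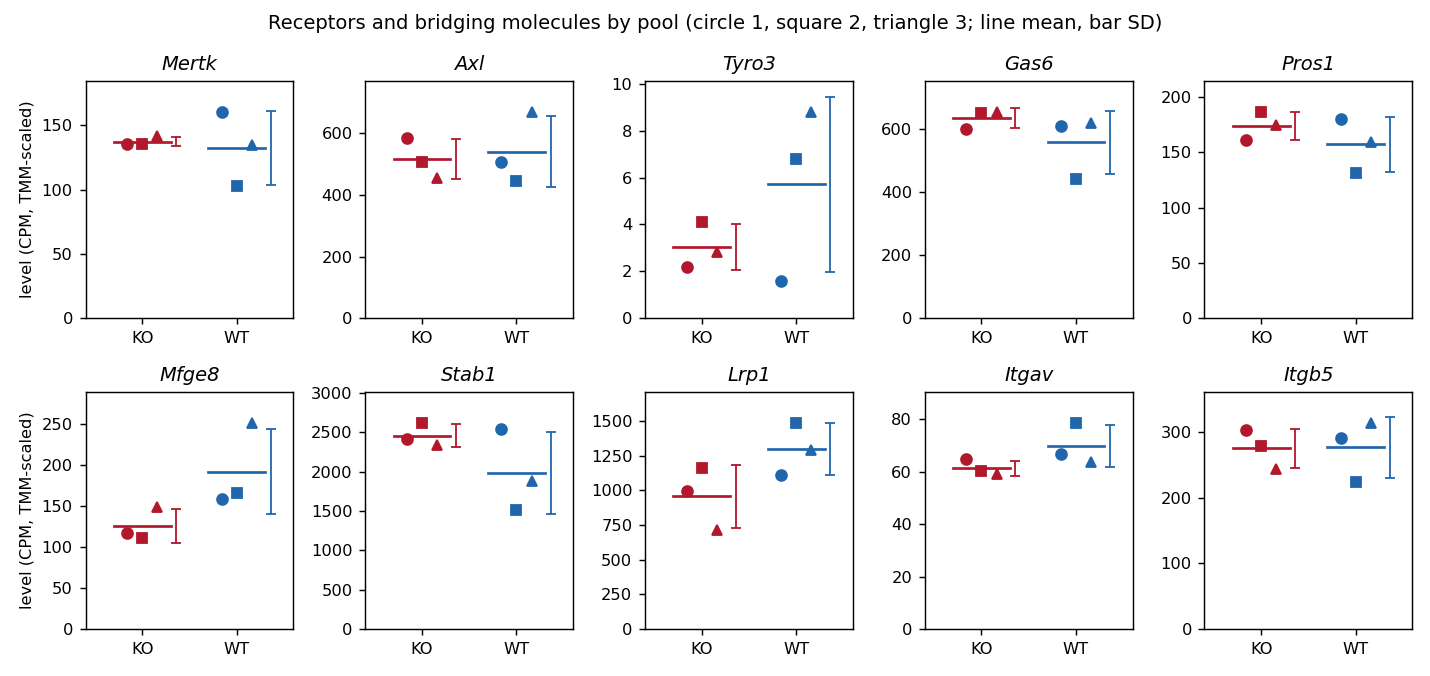
Level of each gene in the 3 KO (red, left) and 3 WT (blue, right) pools, in CPM on a linear axis from 0. Points are pools, the line is the mean and the bar beside it 1 SD. Mfge8 is the one gene whose KO pools (111 to 148 CPM) all lie below its WT pools (159 to 251 CPM).

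Mertk, a receptor through which macrophages take up apoptotic cells, showed no difference past the threshold. In CPM, reads scaled to a common library size by TMM, its level was 135, 135 and 141 in the KO pools, against 160.4, 102 and 134 in the WT pools. The KO pools lay within the range of the WT pools, which spread widely. The log2 fold change was 0.05 (SE 0.16, 95% interval -0.33 to 0.43, edgeR adjusted p = 0.912). On a linear scale the interval covers KO levels from 0.798 to 1.34 times the WT level. Mertk (ENSMUSG00000014361) lies on chromosome 2 at 128698956 to 128802894 of GRCm38, plus strand, and held 1965 to 4169 reads in a library.

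Axl, the TAM receptor with the highest counts and one that inflammation induces, had 587, 507 and 457 CPM in the KO pools, against 507, 447 and 669.9 CPM in the WT pools. The highest and the lowest of the 6 values were both WT pools. Its log2 fold change was -0.07 (SE 0.19, 95% interval -0.50 to 0.37, edgeR adjusted p = 0.898).

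Tyro3, best known from the nervous system, was close to the detection limit. Its level was 2.18, 4.08 and 2.83 CPM in the KO pools (57, 104 and 73 reads), against 1.58, 6.78 and 8.80 CPM in the WT pools (41, 130 and 189 reads). WT replicate 1 was the lowest of all 6 and the other two WT pools the highest. Its log2 fold change was -0.91 (SE 0.56, 95% interval -2.21 to 0.40, edgeR adjusted p = 0.485). Without WT replicate 1, Tyro3 fell in KO (log2 fold change -1.36, SE 0.31, edgeR adjusted p = 0.0404), in a fit that called 8.3% of all genes, 2.33% higher and 5.97% lower. Leaving out any other single pool did not give that call.

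Taken per kilobase of exon, Axl made up 78.7%, 76.0% and 73.3% of the summed level of the 3 TAM receptors in the KO pools, against 73.0%, 78.2% and 80.4% in the WT pools. Mertk made up 21.1%, 23.5% and 26.3% in the KO pools, against 26.8%, 20.8% and 18.7% in the WT pools, and Tyro3 was at most 0.963% in any pool. Axl therefore exceeded Mertk in every pool, by 2.78 to 3.74 times in KO and 2.72 to 4.29 times in WT, and these ranges overlapped.

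Both TAM ligands were abundant and their groups overlapped. Gas6, the ligand that binds all TAM receptors, had 600.1, 653 and 655 CPM in the KO pools, against 611, 444 and 621 CPM in the WT pools. Only WT replicate 2 stood apart, below the other 5. The log2 fold change of Gas6 was 0.19 (SE 0.17, 95% interval -0.20 to 0.58, edgeR adjusted p = 0.639).

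Pros1, which encodes the anticoagulant protein S and a ligand of Mertk and Tyro3, had 161, 186 and 175 CPM in the KO pools, against 180.3, 131 and 159.7 CPM in the WT pools. Again WT replicate 2 was the lowest. Its log2 fold change was 0.15 (SE 0.14, 95% interval -0.18 to 0.47, edgeR adjusted p = 0.666). Per kilobase of exon, Gas6 stood above Pros1 by 5.98, 5.62 and 6.02 times in the KO pools and by 5.44, 5.42 and 6.24 times in the WT pools.

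Mfge8, the bridging protein whose integrin-binding codons are printed above, had the smallest p-value of the 10. Its level was 117, 111 and 148 CPM in the KO pools, against 159, 165 and 251 CPM in the WT pools. No KO pool reached the lowest WT pool, and KO averaged 65.4% of the WT level (125 ± 20.2 CPM in KO and 192 ± 51.7 CPM in WT, SD, n = 3 each). The log2 fold change was -0.61 (SE 0.21), with an unadjusted p of 0.0179 that did not hold over all genes (edgeR adjusted p = 0.244). It was the 1 of the 10 genes with no overlap between groups, with 0 in the other direction, while 19.7% of all genes tested did not overlap, 10.1% with all KO pools below and 9.59% with all KO pools above. Mfge8 (ENSMUSG00000030605) lies on chromosome 7 at 79133768 to 79149060, minus strand, and held 2816 to 5398 reads in a library.

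Markers of vessel wall cells, which also make Mfge8, were lower in the same KO pools. The summed level of 10 endothelial markers was 997 to 1337 CPM in KO, against 1855 to 3147 CPM in WT, and all 10 had every KO pool below every WT pool. For 10 mural cell markers the sums were 1512 to 2257 CPM in KO and 2439 to 4007 CPM in WT, with 8 of the 10 not overlapping. Over all genes tested, 10.1% had every KO pool below every WT pool. At an unadjusted p under 0.05, edgeR placed 10 of the endothelial and 9 of the mural markers lower, beside 10.6% of all genes. No marker of either list was at 0 in any library, and none of these markers passed edgeR over all genes. The summed fibroblast markers, given below for Lrp1, overlapped between the groups. Of the other genes named above as also made by fibroblasts or vessel wall cells, Gas6 was at 113.9% of its WT level, Axl at 95.5% and Lrp1 at 73.8%. The part of these markers in the Mfge8 difference was not tested. In such bulk RNA, fewer cells of a type and less RNA per cell cannot be told apart.

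Set against the summed endothelial markers of its own pool, in a comparison added after these values were seen, Mfge8 was at 11.8%, 10.6% and 11.1% in the KO pools, against 8.56%, 7.90% and 7.99% in the WT pools. By that measure every KO pool lay above every WT pool. The same held for 8 of the 10 genes and for 72.1% of all genes tested, so it is no property of Mfge8 alone; the opposite held for 0 of the 10 and 0.146% of all genes. Against the mural markers, 3 of the 10 had every KO pool above and 0 every KO pool below, beside 51.1% and 0.719% of all genes, and against the fibroblast markers 0 and 0, beside 10.8% and 0.216%. With the mean log2 level of the mural markers in place of their sum, 8 of the 10 had every KO pool above, beside 76.1% of all genes tested.

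**Figure D2:**
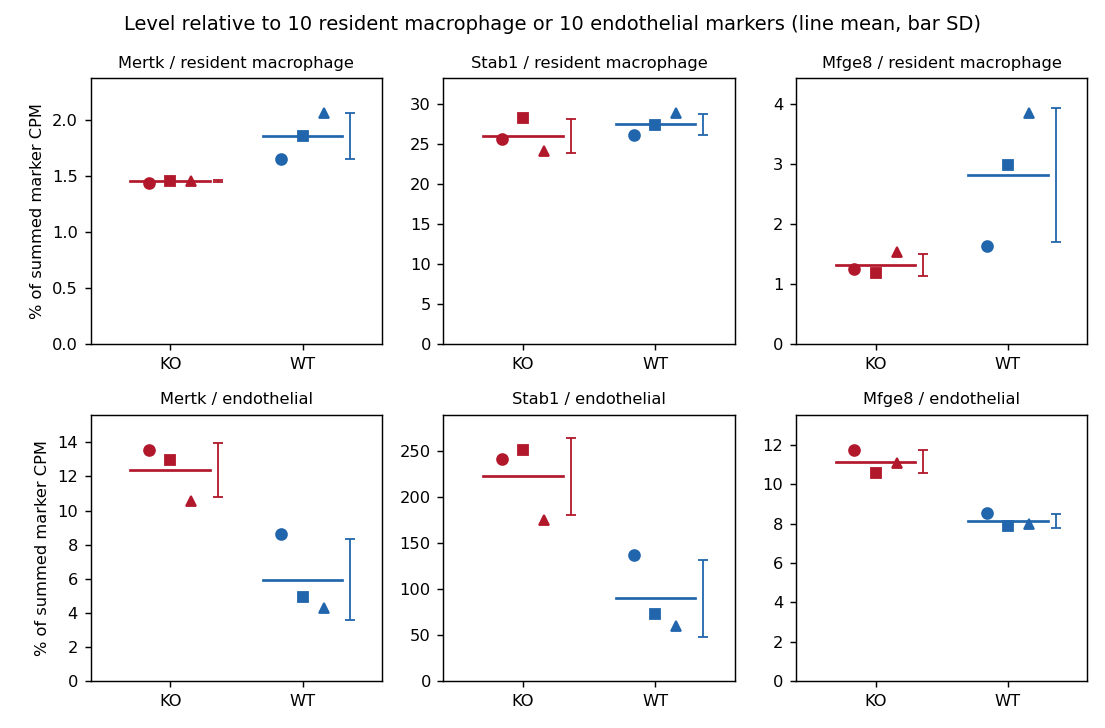
Mertk, Stab1 and Mfge8 as a percentage of the summed CPM of 10 resident macrophage markers (top row) or 10 endothelial markers (bottom row), in KO (red, left) and WT (blue, right) pools. Points are pools, the line is the mean and the bar 1 SD. In the top row the KO pools of Mertk and Mfge8 all lie below WT and those of Stab1 overlap it. In the bottom row the KO pools of Mertk, Stab1 and Mfge8 all lie above WT.

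Stab1, which encodes stabilin-1, a scavenger receptor of tissue macrophages that binds phosphatidylserine directly, had the highest counts of the 10. It had 2410.3, 2622 and 2335 CPM in the KO pools, against 2545, 1510.2 and 1883 CPM in the WT pools. WT replicate 1 lay among the KO pools and the other two WT pools below them. The log2 fold change was 0.31 (SE 0.23, 95% interval -0.22 to 0.85, edgeR adjusted p = 0.564), and it was 0.54 without WT replicate 1 and 0.14 without WT replicate 2, neither of them called. WT replicate 1 was also high in macrophage markers: the summed level of 10 of them was 9299 to 9704 CPM in KO, against 9735 CPM in WT replicate 1, 5536 CPM in WT replicate 2 and 6535 CPM in WT replicate 3. The part of macrophage content in the Stab1 values was not tested.

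Relative to those summed macrophage markers, Stab1 was at 25.6%, 28.2% and 24.1% in the KO pools, against 26.1%, 27.3% and 28.8% in the WT pools. These ranges overlapped. Mertk was at 1.44%, 1.45% and 1.46% in the KO pools, against 1.65%, 1.85% and 2.06% in the WT pools, so the KO pools were all lower. By this measure, which was also added after the values were seen, 2 of the 10 genes, Mertk and Mfge8, had every KO pool below and 0 every KO pool above, beside 16.1% and 1.06% of all genes tested. With the mean log2 level of the markers in place of their sum, 3 of the 10 lay below, Itgav being added, beside 25.2% of all genes tested. Per kilobase of exon, Stab1 exceeded Mertk by 7.51, 8.18 and 6.96 times in the KO pools, against 6.69, 6.21 and 5.90 times in the WT pools. Of the ratios computed among the 10, Mfge8 over Gas6 also did not overlap, and the others did. That ratio was 0.106, 0.092 and 0.123 in the KO pools, against 0.141, 0.202 and 0.220 in the WT pools. None of these ratios was tested, and their share over other gene pairs was not computed.

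Lrp1, a large endocytic receptor that recognises calreticulin on dying cells and is also abundant on fibroblasts, had 998, 1165 and 711 CPM in the KO pools, against 1114, 1489.8 and 1289 CPM in the WT pools. KO replicate 2 lay above WT replicate 1, so the groups overlapped, and KO replicate 3 was the lowest. KO averaged 73.8% of the WT level. The log2 fold change was -0.44 (SE 0.22, 95% interval -0.95 to 0.08, edgeR adjusted p = 0.394), and without KO replicate 3 it was -0.27. The summed level of 10 fibroblast markers was 3911 to 5389 CPM in KO, against 4547 CPM in WT replicate 1, 9518 CPM in WT replicate 2 and 14768 CPM in WT replicate 3. All 10 had negative log2 fold changes, none was at 0 in any library, and their part in the Lrp1 values was not tested.

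The integrin chains showed small differences. Itgav, the alpha v chain to which Mfge8 binds, had 64.7, 60.3 and 59.1 CPM in the KO pools, against 66.7, 78.7 and 63.8 CPM in the WT pools. Only KO replicate 1 lay above any WT pool. Its log2 fold change was -0.19 (SE 0.11, 95% interval -0.45 to 0.08, edgeR adjusted p = 0.481), the most precise of the 10.

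Itgb5, the beta 5 chain that pairs with alpha v, had 304, 279 and 244 CPM in the KO pools, against 292, 224 and 314 CPM in the WT pools. The log2 fold change was -0.0073 (SE 0.16, 95% interval -0.38 to 0.37, edgeR adjusted p = 0.985). Itgb3, the other beta chain through which Mfge8 acts, did not pass, with 16.5 ± 1.83 CPM in KO and 23.9 ± 3.92 CPM in WT (SD, n = 3 each; log2 fold change -0.53, SE 0.16, edgeR adjusted p = 0.228). Every KO pool of Itgb3 lay below every WT pool, as did 10.1% of all genes tested.

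**Figure D3:**
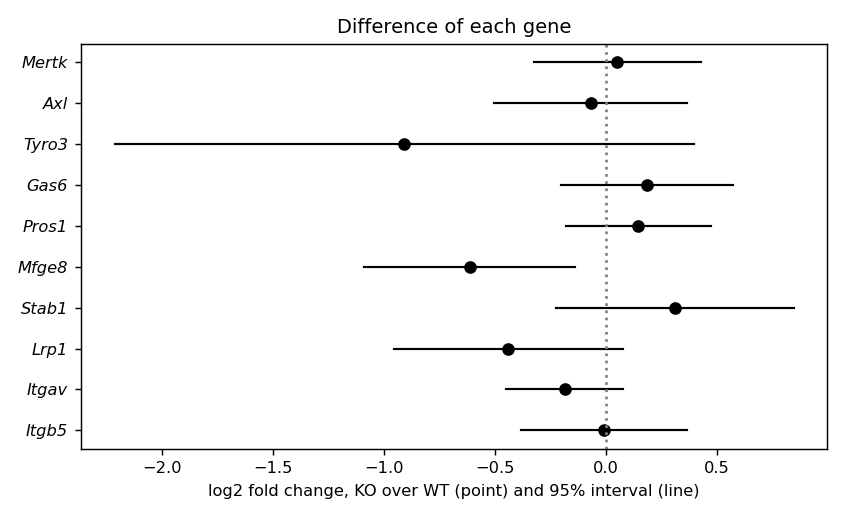
Log2 fold change of each gene, KO over WT (point), with its 95% interval from the edgeR fit before adjustment for multiple genes (line). The interval of Mfge8 lies below 0 and those of the other 9 genes span 0; none passes after adjustment.

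Levels per kilobase of exon allow the genes to be ranked within a pool. Over the 6 libraries Gas6 averaged 234 and Stab1 216 CPM per kilobase, followed by Axl (105), Itgb5 (77.7), Lrp1 (63.7), Pros1 (40.5), Mfge8 (33.8), Mertk (31.1), Itgav (6.10) and Tyro3 (0.706). Stab1 exceeded Axl, Axl exceeded Itgb5, Mertk exceeded Itgav and Itgav exceeded Tyro3 in all 6 libraries. Gas6 and Stab1, Itgb5 and Lrp1, and Lrp1 and Pros1 kept their order in 5 libraries, Pros1 and Mfge8 in 4. Mfge8 exceeded Mertk in 2 of the 6, both of them WT pools, and these neighbours do not differ beyond their spread.

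Variation between pools was wider in WT. The coefficient of variation of CPM was 2.60% in KO and 21.9% in WT for Mertk, 4.89% and 17.8% for Gas6, and 6.06% and 26.5% for Stab1. It was larger in WT for 9 of the 10 genes, Lrp1 being the exception (23.9% in KO and 14.5% in WT), and for 64.6% of all genes tested.

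Some of the 10 moved together from pool to pool. Across the 6 libraries the correlation of log2 CPM was 0.93 between Pros1 and Stab1, 0.92 between Gas6 and Pros1, 0.89 between Axl and Itgb5 and 0.87 between Mertk and Pros1, and it was -0.97 between Gas6 and Itgav. These are descriptions of 6 libraries that share their scaling and cell mixture. By the same measure, the gene most like Mfge8 among 10754 searched was Cers4 (r = 0.999), followed by Spns2 and Eng, the endothelial receptor endoglin (0.998). Cysltr1, Scimp and Tlr1, all 3 known from myeloid cells, were most like Stab1 (0.997 to 0.999). In a search this wide over 6 libraries, the highest value for each of the 10 ran from 0.982 for Axl to 0.999 for Stab1. The cell source of the 10 was not tested. For Mertk the nearest were Rps6 (0.994), App and Zfp513 (0.988), for Axl Srf (0.982), Stim2 and Yipf3, and for Gas6 Ano8 (0.997), Sympk and Lrrc45. Commd9 (0.995), Mms19 and Sult1a1 were nearest to Pros1, and Pcdh18 (0.986), Gulp1 and Eci2 to Tyro3. The nearest to Lrp1 were Nav1 (0.984), Clasp2 and mt-Rnr2, to Itgav Itpr2 (0.991), Slc25a16 and Gzf1, and to Itgb5 Osbpl2 (0.986), Cited2 and Aifm2.

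Beyond the 10, 73 other genes of apoptotic cell clearance were grouped by textbook role, and 0 of the 73 were called in edgeR over all genes. At an unadjusted p under 0.05, 6 were higher and 11 lower in KO, beside 4.77% and 10.6% of all genes tested. The median log2 fold change was 0.09, with 44 positive and 29 negative, beside 7979 positive and 7728 negative among all genes tested. Every KO pool lay above every WT pool for 11 of them and below for 11, beside 9.59% and 10.1% of all genes tested.

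Among 16 other engulfment receptors 8 were positive and 8 negative. Timd4, a phosphatidylserine receptor of long-lived resident macrophages, was at 135 ± 15.8 CPM in KO and 83.7 ± 28.8 CPM in WT (SD, n = 3 each; log2 fold change 0.68, SE 0.23, edgeR adjusted p = 0.246). Trem2, a lipid receptor of phagocytes, was at 69.3 ± 4.64 CPM in KO and 48.9 ± 10.7 CPM in WT (0.50, SE 0.17, edgeR adjusted p = 0.242). Megf10, an engulfment receptor known from glia and muscle satellite cells, was at 1.69 ± 0.0986 CPM in KO and 4.74 ± 2.55 CPM in WT (-1.48, SE 0.46, edgeR adjusted p = 0.228). Its counts were low, with 43, 46 and 42 reads in the KO pools, against 47, 124 and 128 in the WT pools. WT replicate 1 (1.808 CPM) lay level with KO replicate 2 (1.807 CPM).

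Of 14 other bridging and eat-me molecules 8 were positive, with a median log2 fold change of 0.18. The find-me and do-not-eat-me group held P2ry2, a receptor for nucleotides released by dying cells, at 20.6 ± 6.41 CPM in KO and 33.7 ± 6.59 CPM in WT (-0.71, SE 0.25, edgeR adjusted p = 0.249). In engulfment signalling 5 of 10 were positive.

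Adam17, the protease that sheds Mertk from the cell surface, was at 198, 191 and 189 CPM in the KO pools, against 188, 139 and 149 CPM in the WT pools (log2 fold change 0.28, SE 0.14, edgeR adjusted p = 0.374), and is named for that role after its values were seen. Socs1, a brake on cytokine signalling that TAM receptors can induce, was at 20.6 ± 1.40 CPM in KO and 32.7 ± 10.5 CPM in WT (-0.66, SE 0.23, edgeR adjusted p = 0.249). Of 14 genes of digestion and response 12 were positive, beside 7979 of the 15707 genes tested. At an unadjusted p under 0.05, edgeR placed 1 of the 14 higher and 2 lower. The ion transporter Slc12a2 was at 35.1 ± 2.54 CPM in KO and 48.6 ± 4.88 CPM in WT (-0.47, SE 0.12, edgeR adjusted p = 0.192). All 5 genes of phosphatidylserine exposure lay between -0.22 and 0.22.

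**Figure D4:**
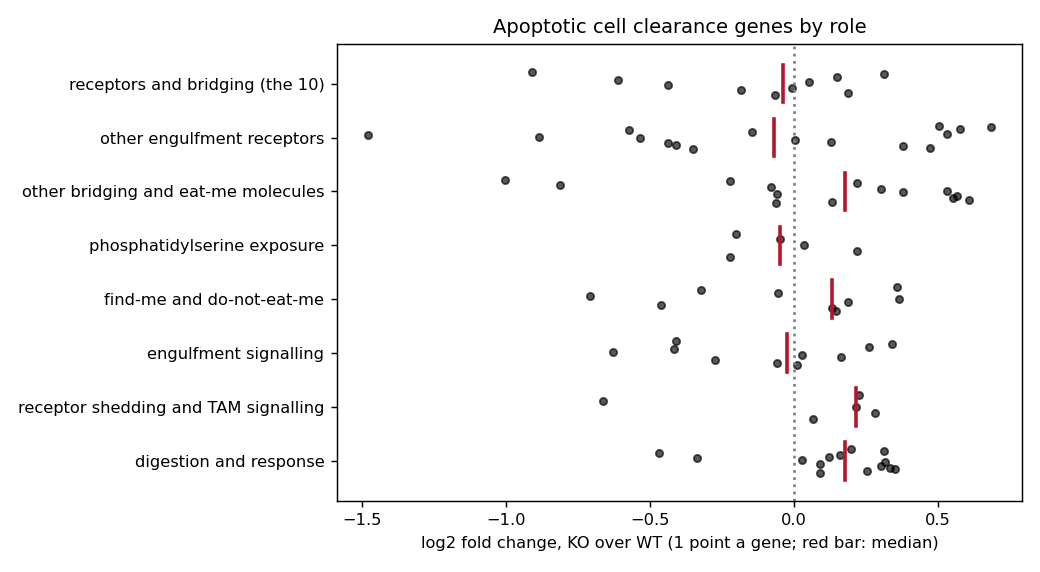
Log2 fold changes, KO over WT, of the 10 genes and of 73 other clearance genes by role, 1 point a gene, with the median of each group as a red bar. Medians run from -0.07 (other engulfment receptors) to 0.21 (receptor shedding and TAM signalling), and no point passes the test over all genes.

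The number of these genes called changed most on leaving out 1 pool. Without WT replicate 1, edgeR called 8.3% of all genes, 2.33% higher and 5.97% lower in KO. Of the 73 it called 12, with 7 higher and 5 lower. Those higher were the complement C1q chains C1qa, C1qb and C1qc, which coat dying cells (log2 fold changes 0.89, 0.88 and 0.87), with Timd4 (1.00), the scavenger receptor Msr1 (0.79), the lysosomal nuclease Dnase2a (0.57) and Lgals3 (0.57). Lower were Megf10 (-1.87), the alpha v partners Itgb8 (-1.27) and Itgb3 (-0.65), the adaptor Gulp1 (-0.96) and Socs1 (-0.89). Leaving out any of the other 5 pools gave 0 calls among the 73. The summed level of 5 erythroid markers was 36.2 to 84.7 CPM in the KO pools, against 1876 CPM in WT replicate 1, 75.5 CPM in WT replicate 2 and 142 CPM in WT replicate 3. WT replicate 1 was also above the other WT pools in the summed macrophage markers and below them in the summed fibroblast markers, by the values given above for Stab1 and Lrp1. The part of these markers in the calls was not tested.

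Checks of the series as a whole were as follows. The KO libraries held 25199667 to 27485129 reads in genes and the WT libraries 17780707 to 27104205. In KO, Egfr was at 36.4% of its WT level and Lyz2, a lysozyme gene of myeloid cells, at 0.370%; edgeR, with the filter on low counts and no further term, called only these. Itgam, which encodes Cd11b, was at 120.0 to 176 CPM in KO and 84.4 to 141 CPM in WT. Y-linked transcripts were present in KO replicate 1 (234 CPM summed over 4 genes) and WT replicate 1 (240.2 CPM) and were below 1 CPM in the other 4 pools. Between those 2 pools Mertk differed by -0.25 on the log2 scale, KO over WT, and among the other 4 pools by 0.19. For Mfge8 the same values were -0.44 and -0.71, for Axl 0.21 and -0.24, for Tyro3 0.46 and -1.20 and for Stab1 -0.08 and 0.52, and none was called among the 4 pools.

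**Figure D5:**
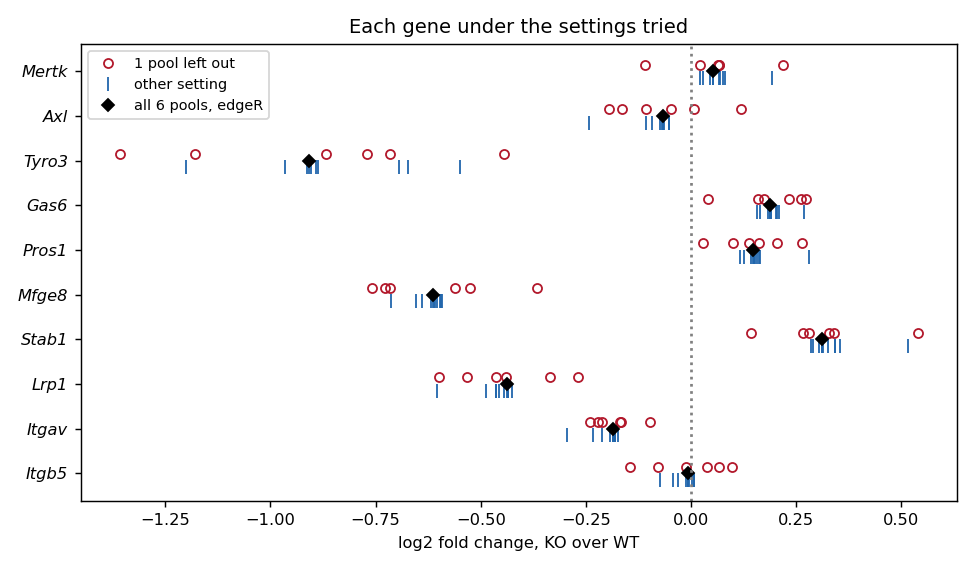
Log2 fold change of each gene, KO over WT, with all 6 pools (black diamond), with 1 pool left out (red circles) and under other scalings, filters, tests and terms (blue ticks). Mfge8, Lrp1, Itgav and Tyro3 stay below 0 and Gas6, Pros1 and Stab1 above 0 in every setting shown, whereas Mertk, Axl and Itgb5 cross 0.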

How the data were processed

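The deposited values are raw counts of reads per Ensembl gene, 1 table per library; STAR, HTSeq, DESeq2 and GRCm38 are named, without versions, in the submitters' processing notes. The labels give neither the strand setting nor the annotation release. The 5 counters that name no gene (15.4% to 18.8% of counted reads) were left out. Symbols came from a gene name table (55141 of 55487 identifiers matched), and exon lengths and coordinates from GENCODE M21 (GRCm38). Annotated exons of Gas6, Stab1 and Itgav overlap a gene on the opposite strand, by 34, 112 and 634 bases.

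KO was compared with WT in edgeR 4.0.16 (R 4.3.3): filterByExpr (minimum count 10), TMM scaling, glmQLFit and glmQLFTest with default settings and no other term, two-sided, with Benjamini-Hochberg adjustment over 15707 genes and a threshold of 0.05. Levels are TMM-scaled CPM; SE is the change over the square root of F, and intervals use the fit's degrees of freedom. Ratios to marker lists carry no test. The edgeR steps were run on simulated counts as a check of the code, and figures were drawn with matplotlib 3.10.9. The simulation set the same scatter for every gene and no difference in cell mixture. It therefore cannot show how the test performs on pools such as these. Replicates within a group differed by more than counting noise (chi-square per degree of freedom 38.0 to 84.1). The labels do not say that replicate numbers pair KO with WT. Correlations of same-numbered deviations from the group means were 0.10, -0.16 and 0.0060. Deviations within a group are tied to its mean, so these values cannot decide whether same-numbered pools shared a batch. KO replicate 1 and WT replicate 1 were the pools with Y-linked counts.

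Alternatives were DESeq2 1.42.0, limma-voom (limma 3.58.1), bias-adjusted deviances, RLE, upper-quartile and library-size scaling, no filter, a mean CPM of at least 5, the replicate number as a block, a Y-linked covariate and each pool left out. A fit without both pools with Y-linked counts, and the ratios to marker lists, were added after seeing the data. The genes and lists were chosen with earlier results of these data known. Named were the 10 genes, Egfr and Lyz2, the 8 wider genes with the smallest p-values (mean CPM 1 or more; 1 of them is not reported here), and for each of the 10 the 3 genes with the highest correlation (mean CPM 5 or more); other names were chosen after their values were seen.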

Additional observations from a re-analysis of the deposited data

How the results depend on the processing

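Over the 10 genes and 17 other settings, 160 of 169 log2 fold changes kept their sign; Tyro3 had no value at a mean CPM of at least 5. The 9 that turned belong to values near 0: Itgb5 was 0.0059 with limma-voom, 0.0071 with upper-quartile scaling and 0.0017 with the replicate block, and ranged from -0.15 to 0.10 on leaving out 1 pool; Mertk ranged from -0.11 to 0.22 and Axl from -0.20 to 0.12 on leaving out 1 pool. Among the 10, 0 were called in every setting except without WT replicate 1 (0 to 1 on leaving out 1 pool). Of the 73 wider genes, DESeq2 called 3, all lower (Megf10, Cd36 and Slc12a2), beside 5.22% of all genes (1.08% higher, 4.14% lower). Without a filter, edgeR called 1 (Megf10, lower), beside 2.7% of all genes (0.479% higher, 2.22% lower). Without both pools with Y-linked counts, edgeR called 3 of 71 tested (Megf10 and Ptx3 lower, Timd4 higher). That fit called 407 of 15748 genes, 63 higher and 344 lower. Leaving out 1 pool gave 0 to 12 calls among the wider genes. Over all genes the count was 2, and it was 809 with DESeq2, 1 with limma-voom, 782 without a filter, 407 without both pools with Y-linked counts and 1 to 1338 on leaving out 1 pool, the highest without WT replicate 1. Egfr passed in 10 of 17 settings, with log2 fold changes of -1.53 to -1.34 on leaving out 1 pool, and Lyz2 in all 17. The cause of these differences between settings was not tested. The replicate block, with 3 calls over all genes, gave 0 among the 10 and the 73. The labels do not say that the numbers pair the pools. The intervals before adjustment reached from 0.471 to 0.909 times WT for Mfge8 and from 0.216 to 1.32 times for Tyro3, the gene with the fewest reads of the 10.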
